A study of Capra hircus with 30 samples.

Results

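The granulosa cells of medium follicles were compared between Ji'ning grey goats of high and low fertility. The members are the 5 libraries labelled HMG (high fertility, medium follicles) and the 5 labelled LMG (low fertility, medium follicles), chosen by these labels alone, which makes 10 of the 30 libraries of the series. The series crosses 2 fertility classes with 3 follicle sizes, in groups of 5 libraries. Per the series design, high fertility goats gave more than 3 young per birth and low fertility goats fewer than 2, while the study's methods set at least 3 and at most 2. No agent was given and no allele is named, the age of the goats is not given in the labels, and all groups share the breed and the tissue. Per the methods, follicles of several goats were collected for each fertility class, granulosa cells were separated from oocytes by pipetting, and those of each follicle size were split into samples of a small number of cells. The series is titled as single-cell, but a library therefore holds RNA of several cells, the animals behind it are not given, and p-values measure the spread between these samples, which may be technical. Libraries are named by group and by the number the labels give (5, 7, 8, 9 or 10).

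Granulosa cells are the somatic cells that line the follicle and surround the oocyte. They answer follicle-stimulating hormone through a cyclic AMP pathway, convert androgens of the theca to estradiol by aromatase, and release inhibins, activins and follistatin, which act on the pituitary and within the follicle. In follicles of intermediate size they divide, are joined by connexin gap junctions, and gain receptors for luteinizing hormone as dominance is reached. Levels are FPKM (fragments normalised to the length of the gene model and to the mapped fragments of a library), and since many values are 0, the libraries above 0 are given beside the level. An exact 0 here says only that the gene is listed at 0.

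The labelled cell type was checked against its markers first. Of 12 granulosa marker genes in the table, 9 were above 0 in at least 1 of the 10 libraries and 0 in all 10. FSHR, the receptor of follicle-stimulating hormone, INHA, the inhibin alpha subunit, and AMHR2, the receptor of anti-Mullerian hormone, were listed at 0 in all 10 libraries. CYP19A1 (aromatase) was at 1.85 FPKM in HMG-10, at 0.14 in LMG-8 and at 1.0 in LMG-9, and listed at 0 in the other libraries. GJA1, the connexin of granulosa gap junctions, was the marker above 0 in most libraries, with 1.25, 0, 0, 4.92 and 2.22 FPKM in HMG libraries 5, 7, 8, 9 and 10 and 0.02, 0.13, 0.3, 0.56 and 0.87 in LMG in the same order, which is kept below. All 5 LMG libraries and 3 of the 5 from HMG held a value, and the levels overlapped. The 12 markers summed to 0 to 9.52 FPKM in HMG and 0.31 to 4.82 in LMG, so the named cell type rests on the labels.

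Markers of other cell types were as sparse. Of the 7 oocyte markers listed, 6 were above 0 somewhere, with sums of 0 to 7.27 FPKM in HMG and 0.37 to 2.65 in LMG, and BMP15 was listed at 0 in all 10. The 8 theca and stroma markers summed to 0 to 1.68 and 0.03 to 1.52 FPKM, the 7 endothelial markers to 0 to 4.0 and 0.31 to 2.54, the 6 immune markers to 0 to 3.08 and 0 to 2.83, and the 2 erythroid markers to 0 to 0.04 and 0 to 0.3. Among their defining genes, CD3E and CD74 were listed at 0 in every medium follicle library, PTPRC stood at 2.74 FPKM in LMG-7 and 0.01 in LMG-9 alone, and ZP2, a zona pellucida gene, stood at 6.93 FPKM in HMG-7 alone. The ranges of HMG and LMG overlapped for all 5 of these lists. Fewer cells of a type and less RNA per cell cannot be told apart in such samples.

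The groups differed in how many of the 20125 features were above 0. HMG libraries had 5515, 5203, 1521, 6329 and 8117 features above 0 FPKM (numbers 5, 7, 8, 9 and 10) and LMG libraries 8349, 6414, 8523, 9256 and 6330. The difference in means was -2437.4 features (5337 ± 2415 against 7774 ± 1325, SD, n = 5 each, exact permutation test, two-sided, p = 0.0476, adjusted p = 0.0833 over 7 limits). The smallest p that all assignments of 5 against 5 allow is 0.00794. HMG-8 stood far below the others, the groups overlapped, and without HMG-8 the difference was -1483.4 features (exact permutation p = 0.0952).

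The direction turned as the limit of detection rose. At 1 FPKM or more, HMG held 2184, 2069, 786, 2274 and 2588 features and LMG 2088, 2336, 2156, 2286 and 2168, a difference of -226.6 in the means (exact permutation p = 0.706). At 10 FPKM or more, HMG held 156, 146, 297, 122 and 109 features and LMG 89, 100, 89, 82 and 131, a difference of 67.8 (exact permutation p = 0.0317, adjusted p = 0.0833). HMG thus had fewer features above 0 and more at high levels, and only LMG-10 lay above any HMG library at the higher limit. Without HMG-8 the difference at 10 FPKM was 35.05 (exact permutation p = 0.0635). The difference was 184.6 at 2 FPKM (exact permutation p = 0.278), where it was 298.1 without HMG-8 (exact permutation p = 0.0476), and 142.6 at 5 FPKM (exact permutation p = 0.0397, adjusted p = 0.0833). With all libraries, none of the 7 limits passed an adjusted p of 0.05.

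The summed FPKM of a library was higher in HMG in the mean, and whether it moves with these counts was not tested. It was 60745, 70397, 82747, 73052 and 73753 in HMG and 55094, 63711, 61927, 59377 and 68707 in LMG. The difference in means was 10376 FPKM (exact permutation p = 0.0397), and 7723 without HMG-8 (exact permutation p = 0.0794). Features without an NCBI gene number held 72.0 to 74.7% of the sum in HMG and 72.6 to 73.3% in LMG. Fits with the libraries rescaled to equal sums are given beside the counts they move. Sequencing depth of the libraries was not examined, since the FPKM table holds no counts. The paper's supplement lists sequence counts and mapping information, which were not used here.

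**Figure D1:**
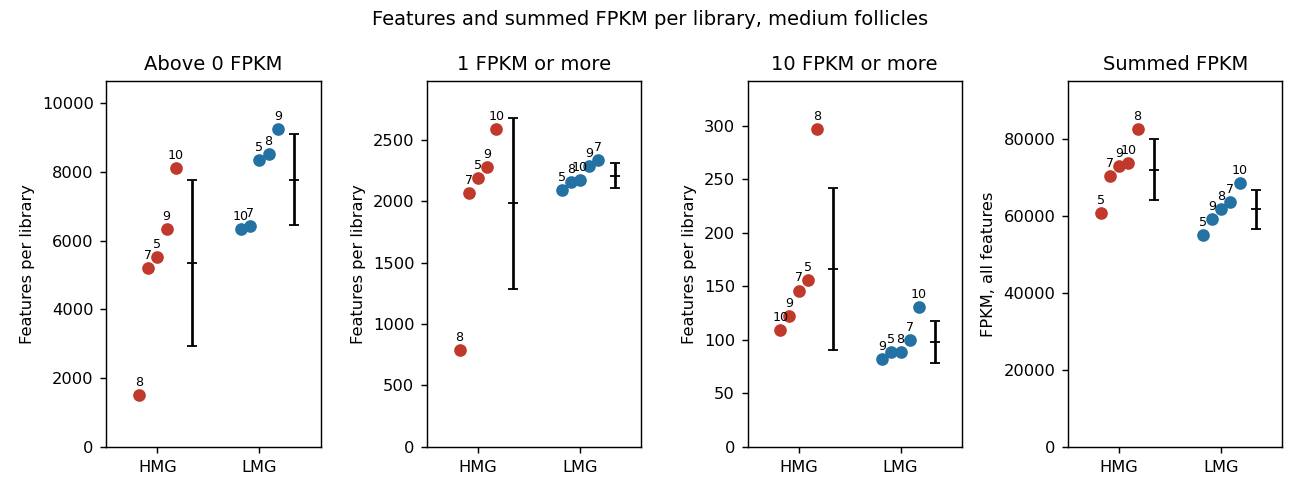
Features per library above 0 FPKM, at 1 FPKM or more and at 10 FPKM or more, and the summed FPKM of each library (y axes), for the HMG and LMG libraries (points, with their numbers). Bars are the mean and SD of 5 libraries. HMG-8 has 1521 features above 0 and 297 at 10 FPKM or more, apart from the other HMG libraries in both.

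Presence was then counted feature by feature. Of 17694 features above 0 in at least 1 of the 10 libraries, 10338 were above 0 in more LMG than HMG libraries, 3581 in more HMG than LMG libraries and 3775 in equal numbers. The totals per library given above move with these counts. In Fisher's exact test per feature, 0 passed an adjusted p of 0.05. The smallest p this test can give is 0.00794 (5 libraries against 0). Adjusted over 17694 features, that p could pass only if very many features reached it, so the 0 decides nothing. At an unadjusted p under 0.05, 3 features (0.017%) were above 0 in more HMG libraries and 296 (1.67%) in more LMG libraries. Features above 0 in all 5 LMG and no HMG library numbered 20, of which 14 have a gene symbol, and 0 showed the reverse. With HMG-8 left out, 27 were above 0 in all LMG and no HMG library, and 2 in all 4 HMG and no LMG library.

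**Figure D2:**
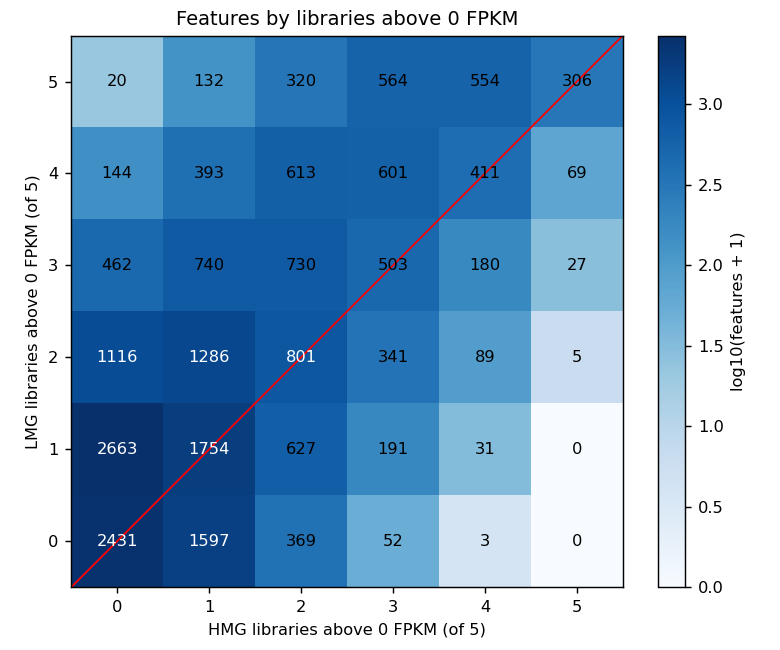
Features by the number of HMG libraries (x axis) and LMG libraries (y axis) in which they were above 0 FPKM. Colour and the printed number give the features in each cell, and the line marks equal numbers. The 20 features at the upper left were above 0 in all LMG and no HMG library, and the cell opposite holds 0.

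The genes above 0 in all LMG and no HMG library had low levels in LMG. CXCR4, the receptor of the chemokine CXCL12, was at 0.39, 0.28, 0.04, 0.77 and 0.34 FPKM in LMG. ADRA1A, an alpha-1 adrenergic receptor, was at 0.85, 1.22, 0.21, 0.95 and 0.47 FPKM. LDAH, a hydrolase of lipid droplets, was at 0.84, 0.29, 0.82, 0.89 and 0.88 FPKM. All 3 were listed at 0 in each HMG library, and no fold can be given. MTMR6, a phosphoinositide phosphatase, was at 0.45, 1.41, 0.58, 0.62 and 1.06 FPKM, and SLC41A2, a magnesium transporter, at 0.33, 0.03, 1.64, 1.61 and 0.28. KRCC1 reached 5.68 FPKM in LMG-10 and lay between 0.3 and 1.46 in the other LMG libraries. CMPK1, a kinase that phosphorylates UMP and CMP, lay between 0.04 and 1.57 FPKM, GORASP1, a Golgi stacking protein, between 0.08 and 0.91, and CENPBD1 between 0.03 and 1.12. CMPK1, CXCR4 and GORASP1 did not pass the filter on low values, and over 7 other genes named by the rule (the highest LMG means) the unadjusted p ran from 8.8e-05 (CDCA7L) to 0.184 (CENPBD1). The adjusted p was 0.122 for CDCA7L and 0.605 or more for the others. ZFAND5, named after its values were seen, was at 0.19, 0.38, 0.08, 0.05 and 0.08 FPKM in LMG and listed at 0 in HMG, with an adjusted p of 1 in limma.

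Levels were tested with limma on log2(FPKM + 1) over 6058 features. The fit called 0 features between HMG and LMG (0.0% of those tested, lowest adjusted p = 0.108). At an unadjusted p under 0.05 there were 312 features, 5.15% of those tested, where 5% would be 302.9. Of these, 92 (1.52%) were higher in HMG and 220 (3.63%) higher in LMG, so 29.5% were higher in HMG. The split was 79 against 268 once the libraries were scaled to the mean library sum, and 65 against 310 with a pseudocount of 0.1, which moved the median difference of all features from -0.07 to -0.12 and -0.43 on the log2 scale. Scaling to a common sum far above the library sums, which equalises the sums and also makes the pseudocount smaller beside the values, gave 51 against 386 over all features (median -0.62) and 33 against 396 over features with an NCBI gene number (median -0.95). The split was 159 against 149 without HMG-8 and 220 against 113 when features above 0 entered the fit as a covariate.

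Values of HMG and LMG did not overlap in 7 features higher in HMG (0.116% of those tested) and 60 higher in LMG (0.99%). A feature near 0 in 1 group can pass the filter mainly through the other group, so these counts depend on the filter. The 7 were chosen after their values were seen. They are the genes C28H10orf107 and BAG4, the uncharacterized LOC102180114, and 4 features without a gene number. BAG4, a co-chaperone of heat shock proteins, was at 1.17, 1.35, 0.64, 1.46 and 1.38 FPKM in HMG and 0.24, 0.2, 0.1, 0.55 and 0.01 in LMG. It was above 0 in all 10 libraries, with a difference of 0.85 ± 0.43 on the log2(FPKM + 1) scale (SE, limma adjusted p = 0.951). MXLOC_228680, a feature with no gene number, was at 3064, 4146, 3040, 2506 and 2902 FPKM in HMG and 2251, 1835, 2018, 1874 and 2314 in LMG, a ratio of means of 1.52. It was not called in the fit of all features (limma adjusted p = 0.947) and was called when the filter and the fit were restricted to the 10 libraries (limma adjusted p = 0.0182).

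Among the 12 genes with the lowest p that were higher in HMG, levels came from 3 to 5 HMG libraries each. TFAP4, a helix-loop-helix transcription factor, was at 1.26, 4.81, 0, 1.32 and 2.38 FPKM in HMG and at 0.08 FPKM in LMG-10 alone. It stood above every LMG library in all HMG libraries but HMG-8, with a difference of 1.31 ± 0.29 (SE, log2(FPKM + 1), limma adjusted p = 0.122). Without HMG-8, its only HMG library at 0, it was called (limma adjusted p = 0.00144). The difference then departed from that in large and small follicles as well (limma interaction, adjusted p = 0.0162, against 0.62 with all libraries). TFAP4 was called in 2 of 20 alternative fits, without HMG-8 and with sample weights. It was not called with only HMG and LMG in the fit, or with the replicate number as a block (limma adjusted p = 0.875). C28H10orf107, named after a human open reading frame, was at 5.72, 1.06, 1.24, 0.55 and 1.02 FPKM in HMG and at 0.02 in LMG-8 and LMG-9 and 0 in the other LMG libraries (difference 1.31 ± 0.31, SE, limma adjusted p = 0.122). HMG-5 held the highest value, and the groups did not overlap. Only 2 libraries of large and small follicles were above 0. The gene thus passed the filter of 0.5 FPKM in 5 libraries through HMG, and its separation adds no support.

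FADS1 and SPRY2 were listed at 0 in HMG-8 and higher in other HMG libraries. FADS1, a desaturase that makes long polyunsaturated fatty acids, was at 0.37, 1.66, 0, 0.83 and 0.96 FPKM in HMG and 0.02, 0, 0, 0.18 and 0 in LMG (difference 0.69 ± 0.23, SE, limma adjusted p = 0.651). SPRY2, which restrains receptor tyrosine kinase signalling, was at 3.56, 1.55, 0, 0.12 and 0.83 FPKM in HMG and 0.04, 0, 0.63, 0 and 0 in LMG (limma adjusted p = 0.651). SEPT7, a septin of the cytoskeleton, was at 1.66, 6.92, 0, 5.45 and 0 FPKM in HMG and at 0.03 in LMG-9 and LMG-10 (limma adjusted p = 0.709). None of these differences was called.

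Of the 7 other genes of this direction, 6 had their highest value in HMG-8. SLC35A2, which carries UDP-galactose into the Golgi, was at 2.21, 6.14, 37.4, 4.63 and 0 FPKM in HMG and 0, 0, 0, 0.67 and 0.69 in LMG. ARL2BP, a binding partner of the small GTPase ARL2, was at 6.6, 0, 82.35, 0 and 1.13 FPKM in HMG and 0, 0.53, 0.68, 0 and 0 in LMG. HMG-8 lay far above every other library in both genes, and 8 of the 12 were above 0 in HMG-8. ZBED9 was at 2.16, 0.81, 22.88, 2.08 and 4.04 FPKM in HMG and 0.1, 0, 0.12, 0.07 and 4.43 in LMG. PEX13, a peroxisomal import protein, was at 1.93, 2.45, 11.11, 0 and 4.16 FPKM in HMG and 0.26, 0.3, 0.18, 1.38 and 0.44 in LMG. HEPHL1, a ferroxidase related to hephaestin, was at 0, 3.71, 6.85, 0.34 and 1.72 FPKM in HMG and 0, 0.06, 0, 0.21 and 0.03 in LMG. SLC35G1 was at 0, 1.67, 5.97, 2.28 and 0.28 FPKM in HMG and at 0.52 in LMG-5 alone. The groups overlapped in each of these genes. TEX261 was at 0, 2.64, 2.14, 0.47 and 1.55 FPKM in HMG and at 0.54 in LMG-8 alone (limma adjusted p = 0.301). The adjusted p of the other 6 genes named in this paragraph lay between 0.595 and 0.709.

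The 12 genes with the lowest p that were higher in LMG were mostly listed at 0 in HMG. C22H3orf62 was at 0.21, 2.99, 1.28, 1.56 and 7.93 FPKM in LMG and at 0.18 in HMG-9 alone (difference -1.55 ± 0.32, SE, limma adjusted p = 0.108). It had the lowest p of the fit, and the groups did not overlap. CDCA7L, which binds MYC, was at 0.23, 1.03, 0.8, 2.66 and 3.41 FPKM in LMG and listed at 0 in all HMG libraries. Of the large and small follicle libraries, 4 were above 0 for C22H3orf62 and 2 for CDCA7L. The 2 genes thus passed the filter mainly through LMG, and their separation adds no support. Without LMG-5, which held the lowest LMG value of both, C22H3orf62 (limma adjusted p = 0.0024) and CDCA7L (limma adjusted p = 0.0225) were called. Without LMG-10, C22H3orf62 was again called (limma adjusted p = 0.0488). C22H3orf62 was thus called in 2 and CDCA7L in 1 of 20 alternative fits. Neither was called with only HMG and LMG in the fit, or with the replicate number as a block (limma adjusted p = 0.875 for both).

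GINS1 and HMGB3 were each above 0 in 1 HMG library. GINS1, a subunit of the replication helicase, was at 2.68, 4.3, 0, 2.14 and 1.05 FPKM in LMG and at 0.09 in HMG-9 alone (limma adjusted p = 0.542). HMGB3, a DNA-binding high mobility group protein, was at 4.74, 0, 0.15, 1.99 and 7.73 FPKM in LMG and at 0.1 in HMG-10 alone (limma adjusted p = 0.369). LMG-8 was at or near 0 for both.

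CLDN11, GPR1 and MALL encode membrane proteins. CLDN11, a claudin of tight junctions, was at 0, 0, 2.82, 2.75 and 3.65 FPKM in LMG and listed at 0 in HMG (limma adjusted p = 0.341). GPR1, a chemerin receptor, was at 1.04, 0.59, 0, 1.52 and 2.53 FPKM in LMG and listed at 0 in HMG (limma adjusted p = 0.301). MALL, a proteolipid of membrane rafts, was at 1.17, 0.57, 0.72, 0 and 0.89 FPKM in LMG and at 0.11 in HMG-10 alone (limma adjusted p = 0.301). Each of the 3 was listed at 0 in at least 1 LMG library, so none separated the groups completely.

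MTFR1 was listed at 0 in every HMG library, and CCDC115 and SHTN1 each had a value in 2. MTFR1, which regulates mitochondrial fission, was at 2.21, 0.3, 2.19, 1.36 and 0 FPKM in LMG and listed at 0 in HMG (limma adjusted p = 0.335). CCDC115, needed for assembly of the proton pump of endosomes and lysosomes, was at 0.47, 3.44, 2.81, 2.41 and 3.65 FPKM in LMG and at 0.04 and 2.1 in HMG-7 and HMG-9 (limma adjusted p = 0.595). SHTN1, a protein of neuronal polarity, was at 1.66, 2.54, 1.93, 0 and 4.95 FPKM in LMG and at 0.86 in HMG-8 and 0.05 in HMG-9 (limma adjusted p = 0.335). It was the only one of these 12 genes above 0 in HMG-8, where 1521 features were above 0 in all. C10H14orf37 and C7H5orf45 had adjusted p of 0.369 and 0.587.

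**Figure D3:**
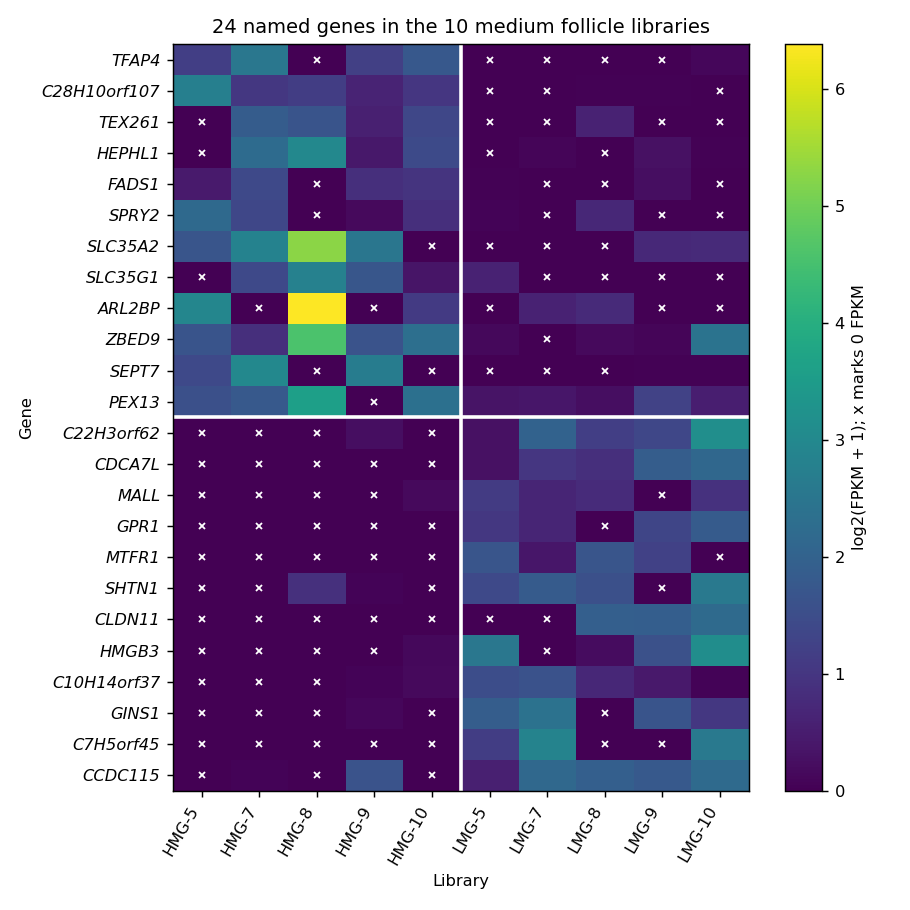
Levels of the 12 genes with the lowest p in each direction (rows, HMG higher above the white line) in the 10 libraries (columns), as log2(FPKM + 1), with a cross where a gene is listed at 0. Crosses fill most of the LMG columns above the line and of the HMG columns below it, and HMG-8 holds the brightest cells of the upper part.

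Genes above 0 in all 10 libraries allow levels to be compared without zeros. There were 306 such features, of which 185 have a gene symbol, and they held 87.3 to 90.9% of the summed FPKM. Of the 302 that were tested, 5 were higher in HMG and 1 higher in LMG at an unadjusted p under 0.05, against 5.15% of all features tested. Their median difference was 0.15 on the log2(FPKM + 1) scale, with a lowest adjusted p of 0.657, beside a median of -0.07 over all features tested. The libraries were not rescaled for this median. Summed FPKM was higher in HMG in the mean (72139 against 61763), and its part in the median was not tested.

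The 12 such genes with the highest median level overlapped between groups. EGFR, the receptor through which EGF-like factors relay the ovulatory signal in granulosa cells, was at 76.79, 70.58, 37.21, 35.75 and 52.53 FPKM in HMG and 40.55, 37.25, 41, 43.36 and 38.98 in LMG (difference 0.36 ± 0.50, SE, limma adjusted p = 1). HMG-5, HMG-7 and HMG-10 were above all LMG libraries, and HMG-8 and HMG-9 below all of them. SGCB, a sarcoglycan, was at 89.31, 139, 82.39, 38.44 and 74.15 FPKM in HMG and 52.88, 44.44, 53.09, 60.68 and 57.79 in LMG (limma adjusted p = 1). All HMG libraries but HMG-9 were above all LMG libraries.

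The peroxisome contributed 2 of the 12. PXMP4, a peroxisomal membrane protein, was at 72.14, 87.46, 63.19, 53.2 and 104.23 FPKM in HMG and 75.85, 58.8, 66.47, 79.45 and 59.02 in LMG. PEX2, a ubiquitin ligase of the peroxisomal import machinery, was at 19.11, 33.21, 41.62, 31.09 and 42.12 FPKM in HMG and 18, 16.74, 29.92, 23.75 and 29.95 in LMG. In both genes LMG values lay within or below the HMG range (limma adjusted p = 1). CDKN1A, the cyclin-dependent kinase inhibitor p21, was at 11.35 to 29.38 FPKM in HMG (median 17.84) and 10.24 to 19.77 in LMG (median 14.69). FFAR4, a receptor of long-chain fatty acids, was at 16.14 to 30.67 FPKM in HMG (median 23.17) and 9.35 to 18.19 in LMG (median 14.5). NIPSNAP1, a mitochondrial protein, was at 35.64, 54, 3.72, 66.23 and 35.29 FPKM in HMG and 28.86 to 43.87 in LMG, with HMG-8 far below every other library. BRI3BP, NIF3L1, MAP9, MRS2, a mitochondrial magnesium channel, and TTC4 also overlapped, and the adjusted p of all 12 was 1.

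**Figure D4:**
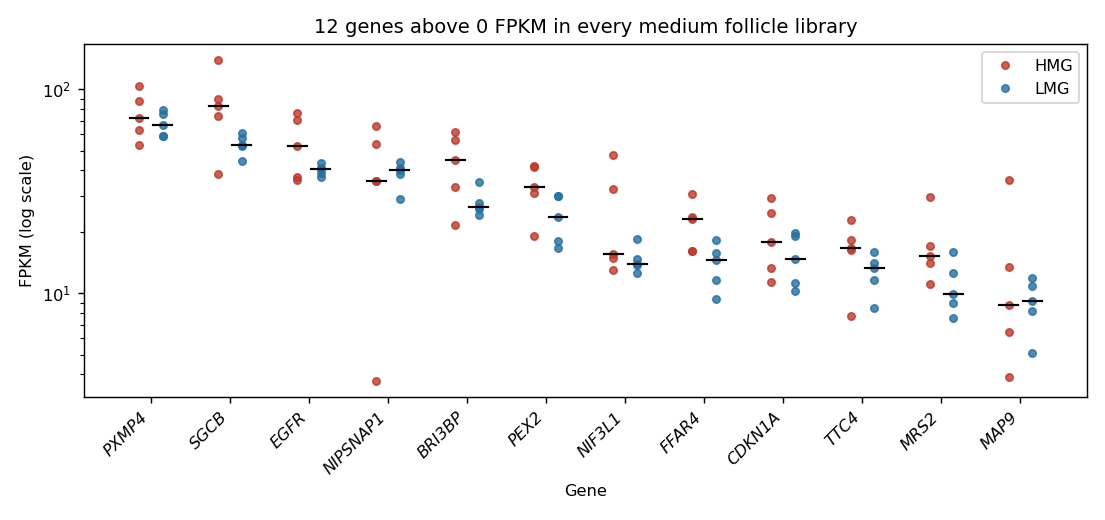
FPKM on a log axis of the 12 genes with the highest median level among those above 0 in all 10 libraries (x axis), with a point per library and a bar at the median of each group. The points of HMG and LMG overlap in every gene, and NIPSNAP1 has 1 HMG library at 3.72 FPKM.

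Gene lists were read by role, by members above 0 and by median difference. The share of member values above 0 was lower in HMG than in LMG in all 22 lists of 20 or more genes, by 5.71 to 19.48 percentage points, where all features differed by 12.11 points (26.5% against 38.6%). Without HMG-8 the differences ran from 0.18 (NOTCH) and 0.94 (genes abundant in most cells) to 12.31 points (kinesins, dyneins and myosins), and that over all features was 7.37 points. The shares of Hippo (48.8% against 68.0%), cell junction (41.1% against 60.6%) and chromatin regulator genes (38.2% against 57.7%) were furthest apart with all libraries, and those of NOTCH genes (32.9% against 38.6%) were nearest. The order did not hold without HMG-8, where the difference was 12.22 points for proteasome subunits, 11.88 for chromatin regulators and 9.14 for cell junctions. No member of any list was called.

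**Figure D5:**
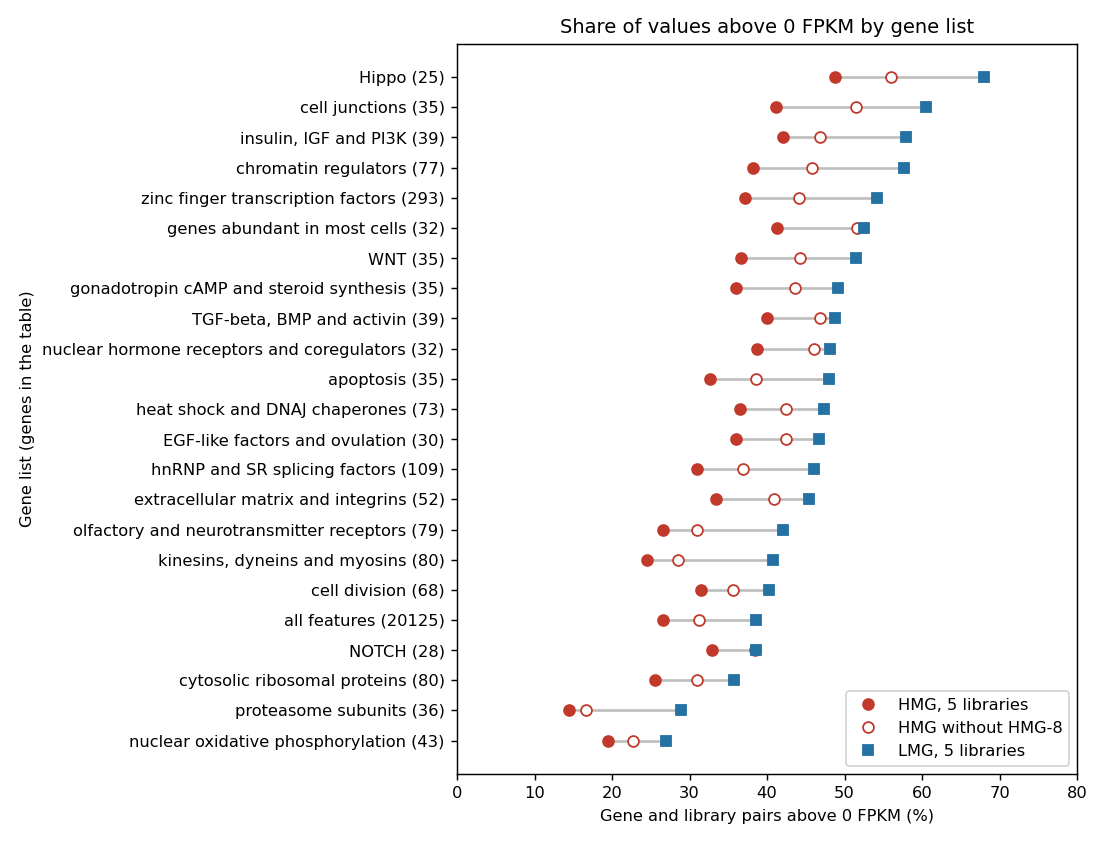
Share of gene and library pairs above 0 FPKM (x axis) for each gene list and for all features (y axis, with the number of genes in the table), in HMG, in HMG without HMG-8 and in LMG. The LMG square lies to the right of the HMG point in every list, by 12.11 points for all features.

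Of 35 genes of gonadotropin signalling, cyclic AMP and steroid synthesis, 33 were above 0 in at least 1 library and 11 were tested. Their median difference was -0.01 on the log2(FPKM + 1) scale, and 1 member was higher and 1 lower in HMG at an unadjusted p under 0.05 (18.2%, against 5.15% of all features). Without HMG-8, where the higher member had its largest value, the list had 0 higher and 1 lower. PRKAR2B, a regulatory subunit of protein kinase A, was at 0, 0.41, 17.57, 1.28 and 3.81 FPKM in HMG and 0.68, 0, 0.38, 0.03 and 0 in LMG (limma adjusted p = 0.885). FDX1, the ferredoxin that passes electrons to the mitochondrial steroidogenic enzymes, was listed at 0 in HMG and at 1.54, 0, 1.01, 1.39 and 7.76 FPKM in LMG (limma adjusted p = 0.651). CREB1, a transcription factor of the cyclic AMP pathway, was above 0 in all libraries but HMG-8, at 0.41 to 2.31 FPKM in those HMG libraries and 0.4 to 1.07 in LMG.

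Signalling lists were tested in the same fit. In the TGF-beta, BMP and activin list 18 of 39 genes were tested, 10 were higher and 8 lower in HMG, and 0 were under an unadjusted p of 0.05. BMPR2, a type II receptor, was at 0.58, 0.06, 0.01, 0.97 and 0.27 FPKM in HMG and 1.07, 1.31, 0.69, 0.64 and 1.21 in LMG, and ACVR2A, an activin receptor, at 0.04 to 1.59 and 0.23 to 1.25. In the Hippo list 16 of 25 genes were tested and 2 (12.5%, against 3.63% of all features) were lower in HMG at an unadjusted p under 0.05, 1 without HMG-8 and 0 with features above 0 as the covariate. TAOK3 was at 0.08 FPKM in HMG-10 alone and at 0.37, 0.81, 0.17, 0.66 and 0.03 in LMG, and TAOK2 at 0.02 in HMG-10 alone and 0.57, 0.01, 0.57, 0.64 and 0 in LMG (limma adjusted p = 0.885 and 0.909). These are kinases upstream of the Hippo core. In the WNT list 13 genes were tested, and 1 (7.69%, against 3.63% of all features) was lower in HMG at an unadjusted p under 0.05. This was FZD5, a WNT receptor, at 0, 0.12, 0, 0 and 0.11 FPKM in HMG and 0.66, 1.22, 1.24, 0.13 and 1.81 in LMG (limma adjusted p = 0.885). Its groups did not overlap, as in 0.99% of all features tested with LMG higher. Without HMG-8 the WNT list had 0 members under an unadjusted p of 0.05.

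The NOTCH (8 genes tested), insulin, IGF and PI3K (22), EGF-like factor and ovulation (12) and apoptosis (14) lists had 0 members under an unadjusted p of 0.05, and without HMG-8 the insulin, IGF and PI3K list had 1. NOTCH2 was at or below 0.64 FPKM in every library. IGF1 was at 0 to 3.94 FPKM in HMG (median 1.77) and 0.14 to 3.85 in LMG (median 0.64). HAS2, which makes the hyaluronan of the expanding cumulus, was at 0.06 to 2.15 FPKM in HMG and 0.21 to 2.31 in LMG, above 0 in all 10 libraries. MCL1, an inhibitor of apoptosis, was at 0.74, 0.41, 0, 3.3 and 2.04 FPKM in HMG and 1.97, 0.29, 0.19, 0.15 and 0.38 in LMG. The ranges of the 2 groups overlapped in each of these genes.

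In the nuclear receptor list 15 genes were tested, and 1 (6.67%, against 3.63% of all features) was lower in HMG at an unadjusted p under 0.05. THRB, a thyroid hormone receptor, was lower in HMG (0.01, 0.04, 0, 0 and 0 FPKM against 0.44, 0, 0.69, 1.25 and 1.63, limma adjusted p = 0.885). ESR1, the estrogen receptor alpha, was at 0.12, 0.31, 10.73, 1.8 and 1.32 FPKM in HMG and 0.36, 0.54, 0.49, 1.35 and 0.81 in LMG (limma adjusted p = 1), with HMG-8 far above the others. Of 68 cell division genes 60 were above 0 somewhere and 21 were tested. At an unadjusted p under 0.05, 1 of these (4.76%, against 3.63% of all features) was lower in HMG. This was CCNA2 (cyclin A2), at 0.24 FPKM in HMG-9 alone and 0, 0.54, 0.61, 0.54 and 0.14 in LMG (limma adjusted p = 0.951). CCND2, a D-type cyclin of granulosa cells, was at 0 to 0.55 FPKM in HMG and 0.11 to 0.93 in LMG. In the extracellular matrix and integrin list (13 tested) and the chromatin list (27 tested), 0 members were under an unadjusted p of 0.05, and 1 in each without HMG-8.

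Housekeeping lists lay on both sides of all features, of which 26.5% of HMG and 38.6% of LMG values were above 0. Genes abundant in most cells were above 0 in 41.25% of HMG and 52.5% of LMG values. For nuclear oxidative phosphorylation genes the shares were 19.53% and 26.98%. The 80 cytosolic ribosomal protein genes were above 0 in 25.5% of HMG and 35.8% of LMG values, and 0 were above 0 in all 10 libraries. RPL10A was at 0.52 FPKM in HMG-10 alone and at 2.99, 1.46, 5.32, 0.77 and 4.75 in LMG (limma adjusted p = 0.657), without overlap. RPS3A and RPL3 were also lower in HMG at an unadjusted p under 0.05. That makes 3 of 36 tested (8.33%, against 3.63% of all features), while the list's median difference was 0.08. Without HMG-8 the list had 2 higher and 2 lower members at that p, where all features had 159 and 149 of 6058. Ribosomal protein genes have many near-identical copies, and reads shared with them make these values uncertain. Among 9 oxidative phosphorylation genes tested, ATP5A1 (0, 4.15, 38.85, 3.03 and 0.75 FPKM against 0, 0, 0.91, 2.5 and 0.09) and ATP5S (0, 4.19, 16.48, 0.81 and 1.88 against 0, 0.03, 0.41, 0.07 and 1.34) were higher in HMG at an unadjusted p under 0.05. They make 22.2% of those tested, against 1.52% of all features higher in HMG at that p. Both had their highest value in HMG-8, and without HMG-8 the list had 0 such members.

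Members of other lists were also at an unadjusted p under 0.05. They made 1.38% (2 of 145 zinc finger genes) to 14.3% (1 of 7 proteasome subunits) of the tested members of a list, against 5.15% of all features. DNAJC3, a chaperone of the endoplasmic reticulum, was at 3.45, 3.64, 4.08, 0 and 1.24 FPKM in HMG and 0.27, 0.56, 0.23, 0.22 and 0.4 in LMG (limma adjusted p = 0.885). PSMD10, a proteasome regulator, was also higher in HMG. KIF5B, a kinesin motor, LDH-A, a lactate dehydrogenase, CHRNA1, a subunit of the muscle acetylcholine receptor, and the zinc finger genes ZNF283 and ZNF879 were lower. None of these 7 genes had an adjusted p under 0.651. Without HMG-8 the list of kinesins, dyneins and myosins had 0 members at an unadjusted p under 0.05. The zinc finger list then had 4 higher and 1 lower in HMG, against 0 and 2 with all libraries. The olfactory and neurotransmitter receptor list, which holds CHRNA1, had 1 and 0, against 0 and 1. Over all 6058 features the counts without HMG-8 were 159 and 149, against 92 and 220. These shifts are thus not read as results about the lists. The heat shock, proteasome and abundant gene lists kept their direction. Over the 22 lists with 5 or more members tested, medians ran from -0.20 (extracellular matrix and integrins) to 0.10 (genes abundant in most cells), around -0.07 for all features. The sign of a list's median depended on the settings: 15 of 22 were below 0 as deposited, 18 with libraries scaled to the mean library sum, 21 with a pseudocount of 0.1, 11 without HMG-8, and 6 with features above 0 as the covariate.

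The contrast of high and low fertility in large and small follicles rests on other libraries. Of the features at an unadjusted p under 0.05 in medium follicles, 116 of 260 (44.6%) had the same sign in large follicles and 168 of 305 (55.1%) in small follicles. All features tested had the same sign in 48.1% and 50.7%. By direction, those higher in HMG had the same sign in 65.4% in large and 41.1% in small follicles, and those higher in LMG in 35.7% and 60.9%. The 12 features higher in LMG that were also at an unadjusted p under 0.05 in small follicles all had the same sign there, and 0 of 5 higher in HMG did. Mean features above 0 were 3561 in high and 2091 in low fertility libraries of large follicles, and 4357 and 5598 in those of small follicles, and the part of these totals in the shares was not tested. Features of 1 library are not independent, and the shares are a description. Among the 12 genes named as higher in HMG, 6 of 11 had the same sign in each of the other sizes, and among the 12 higher in LMG, 2 of 11 in large and 7 of 12 in small follicles. None of the 24 had an unadjusted p under 0.05 in large or small follicles. The test of the difference itself, medium follicles against the mean of the other sizes, called 0 features (0.0% of 6058, limma interaction, lowest adjusted p = 0.62), with 282 at an unadjusted p under 0.05.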

How the data were processed

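The deposited table holds FPKM for 20125 features in 30 libraries. Per the study's methods, RNA was depleted of rRNA (Ribo-Zero) and sequenced on an Illumina HiSeq instrument, and the authors kept unique alignments, discarded duplicates (picard) and derived FPKM in Cufflinks. The aligner and genome build are not given in the sources used here. The table gives 17946 features by NCBI gene number, of which 17945 were matched to symbols in a RefSeq table of the goat assembly ARS1.2, and 2179 by other identifiers. No sequence is shown.

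Groups came from the labels. Features over 0.5 FPKM in at least 5 of the 30 libraries (6058, of which 717 had no NCBI number) were tested on log2(FPKM + 1) with limma 3.58.1 in R 4.3.3, with all 6 groups in 1 fit, a trended and robust prior, and Benjamini-Hochberg adjustment (threshold 0.05). A difference on this scale understates the change of low genes. Counts per library were compared by exact permutation (two-sided), and presence by Fisher's exact test. The limma script was tested on simulated data. Named are the 12 genes with a symbol of lowest p in each direction, up to 10 above 0 in all libraries of 1 group and none of the other, the 12 of highest median among those above 0 in all 10, up to 3 members of each list above 0 in most libraries, markers above 0, and list members under an unadjusted p of 0.05. Some genes that this rule names are not reported here. Members, lists and tests were chosen with earlier results of these data known. Alternatives were another pseudocount, filter, scaling, prior, covariate, sample weights, a replicate block and each library left out. Scaling to the mean library sum, the limits of detection and list shares without HMG-8, and the summed FPKM were added after seeing the data.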

Additional observations from a re-analysis of the deposited data

Results flagged for a closer look

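In 135 sets of 5 libraries (library measures, and named genes above 0 in all 5 on the log2(FPKM + 1) scale, within HMG or LMG), a library stood apart in 16 by Dixon's criterion (gap over range above 0.71). Chance gives about 1 in 20, or 6.8.

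HMG-8 stood apart in features at 1 FPKM or more (786, others 2069 to 2588) and at 10 FPKM or more (297, others 109 to 156), and in NIPSNAP1 (3.72 FPKM, others 35.29 to 66.23) and ZNF12 (8.3, others 0.63 to 1.59). HMG-5 was high in C28H10orf107 (5.72, others 0.55 to 1.24) and HMG-7 in HAS2 (2.15, others 0.06 to 0.4), while HMG-7 was low in BIRC3 (0.03, others 1.47 to 2.31).

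LMG-10 was high in AMOT (1.98 FPKM, others 0.01 to 0.31), HIF1A (2.2, others 0.11 to 0.38), NCOA3 (1.19, others 0.15 to 0.22) and KIF5B (3.42, others 0.23 to 0.68). LMG-5 was high in MCL1 (1.97, others 0.15 to 0.38) and low in CCDC115 (0.47, others 2.41 to 3.65) and NRIP1 (0.12, others 1.06 to 1.41). LMG-9 was high in PEX13 (1.38, others 0.18 to 0.44), and LMG-7 was low in LDAH (0.29, others 0.82 to 0.89).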

How the results depend on the processing

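The count of features called by limma was 0 as deposited and 1 in each of 2 alternatives, a filter and fit on the 10 libraries (MXLOC_228680) and sample weights (TFAP4). With each library left out in turn it was 0 to 3: 1 without HMG-8 (TFAP4), 1 without HMG-10 (MXLOC_242763), 2 without LMG-5 and 3 without LMG-10. The interaction with follicle size gave 0 to 1 calls with each library left out, the 1 being TFAP4 without HMG-8. All 24 genes named by lowest p kept their direction in 487 of 487 refits. These genes were picked by their p in the same libraries, and each refit reuses those values. A kept direction was thus nearly fixed in advance and adds no support.

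Features at an unadjusted p under 0.05 (HMG higher against LMG higher) were 92 and 220 as deposited. They were 65 and 310 with a pseudocount of 0.1, 324 and 871 of 20125 with no filter, 36 and 79 of 1644 with the filter on the 10 libraries, 69 and 245 with 2 groups in the fit, 79 and 268 scaled to the mean library sum, and 72 to 159 and 149 to 229 with each library left out. The cause of these shifts was not tested.

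The difference in features above 0 lost its unadjusted p under 0.05 above 0.5 FPKM (-838.6), and over features with an NCBI number (-2163.2). With each library left out it ran from -3132.4 to -1483.4, and without HMG-5, HMG-7, HMG-8, HMG-9, LMG-5, LMG-8 or LMG-9 its exact permutation p was 0.0794 to 0.0952. In the replicate block the value was the same (-2437.4), and the exact sign permutation of 5 pairs cannot give a p under 0.0625, so it says nothing on this call. The difference at 1 FPKM or more, which was not called, changed sign at 2 (184.6), 5 (142.6) and 10 FPKM (67.8) and without HMG-8 (71.95), and ran from -378.55 to 71.95 with each library left out.

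HMG and LMG share replicate numbers, but same-numbered libraries did not deviate together (correlation -0.03 to 0.04 over the 5 numbers), and 1 of 5 HMG libraries correlated best with its own number. With the replicate block, 0 features were called, and 76 and 213 were at an unadjusted p under 0.05. Depth was not examined, and 5 libraries a group with a median SE of 0.445 on the log2 scale limit what these fits can call.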
